A study of Saccharomyces cerevisiae with 18 samples.

Results

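The 10 genes that encode the sensors and kinases of the high osmolarity glycerol (HOG) cascade of budding yeast are described here: SLN1, YPD1, SSK1, SSK2, SSK22, SHO1, STE50, STE11, PBS2 and HOG1. They were picked by gene name, with earlier results of these data known. Each matched 1 of the 6330 open reading frames (ORFs) with a name of their own. All 10 are among the 6013 ORFs that remained after the ORFs with the lowest input were left out.

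The study asked how the MAP kinase Hog1 shapes the distribution of RNA Pol II in osmotic shock. It used ChIP-seq, in which DNA bound to a protein is precipitated and sequenced. Cells of the W303 background were mock-treated in rich medium (YEPD) or exposed to 0.4 M KCl for 5 min. Each condition was read from 1 library, so every difference below compares libraries, carries no replicate error, and was not tested.

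RNA Pol II was precipitated through its untagged subunit Rpb3 in wild type, in Δhog1 (Δhog1::HIS3) and in Δsko1Δhot1, which lacks the transcription factors Sko1 and Hot1. The only strain with both deletions in the study's strain list also carries HOG1-3HA(HIS3). The Rpb3 libraries of Δsko1Δhot1 may therefore hold the tag and its marker at HOG1 as well. Hog1 was precipitated through an HA tag at its own locus, HOG1-3HA(HIS3), in an otherwise wild-type strain and in a strain with Dsko1::LEU2 and Dhot1::URA3. The mock IP was the HA antibody on untagged wild type, and the input was wild-type chromatin without precipitation. All deletion strains are therefore read beside the mock IP and input of wild type. HOG1 is deleted in one strain and carries the tag in the Hog1 libraries, so its ORF was kept apart and counts are given over the 9 others.

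Yeast senses high osmolarity through a pair of branches. In the Sln1 branch a membrane histidine kinase passes phosphate through Ypd1 to Ssk1, and unphosphorylated Ssk1 activates the MAP kinase kinase kinases Ssk2 and Ssk22. In the Sho1 branch a membrane protein works with the adaptor Ste50 and the kinase Ste11, which the pheromone response also uses. Both branches meet at the MAP kinase kinase Pbs2, which activates Hog1.

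Each value is the authors' signal per ORF, normalised by the authors for ORF length and library size. The median Rpb3 signal over the tested ORFs lay between 7200 and 8260 in the 6 Rpb3 libraries. The supplement gives 1 range of read numbers for the Hog1 and transcription factor samples together, and depth per library is not given in the sources used here, so no counting error is set beside a value. As a scale for a difference between libraries without a cascade target, the log2 fold of osmotic shock over mock treatment had a standard deviation of 0.17 across ORFs in input and of 0.39 in the mock IP. Genes with much RNA Pol II also moved in these controls, since GPD1, the glycerol 3-phosphate dehydrogenase of glycerol synthesis, had a log2 fold of 2.96 in the mock IP and of 1.04 in input.

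The label of the Δhog1 strain held at HOG1 itself. The Rpb3 signal at the HOG1 ORF (YLR113W) was 18700 in mock-treated and 20500 in shocked wild type. In Δhog1 it was 667 and 1240, which is 3.57% and 6.05% of wild type and ranked 6013 and 6012 from the top of 6013 ORFs. In Δsko1Δhot1 it was 19800 mock-treated and 26300 in shock. Where the gene is present, HOG1 was the most RNA Pol II-rich ORF of the 10 in all 4 libraries, at 2.40 to 3.54 times the library median. In shocked Δsko1Δhot1 SSK1 was close to it with 26000, and 1 library cannot order them. The log2 fold of HOG1 with shock was 0.13 in wild type and 0.39 in Δsko1Δhot1. HOT1, a deleted transcription factor gene, gave 569 and 1060 Rpb3 signal in Δsko1Δhot1 against 6350 and 7820 in wild type. SKO1 had no match by name among the tested ORFs, so its deletion was not checked.

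As a set, the other cascade genes held about as much RNA Pol II as the median ORF in mock-treated wild type. In mock-treated wild type the 9 Rpb3 signals ran from 4130 at STE11 to 10200 at SHO1 and PBS2, with a median of 7230 beside 7300 for all tested ORFs. Divided by input, the 9 values were 0.48 to 1.14, and PBS2 was the one member above its input. SHO1 and PBS2 had the same signal to the 3 digits given, as did SSK1 and SSK22, and the neighbours in this order cannot be told apart with 1 library each. The plot of Rpb3 signal by library shows how narrow this band is beside HOG1.

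**Figure D1:**
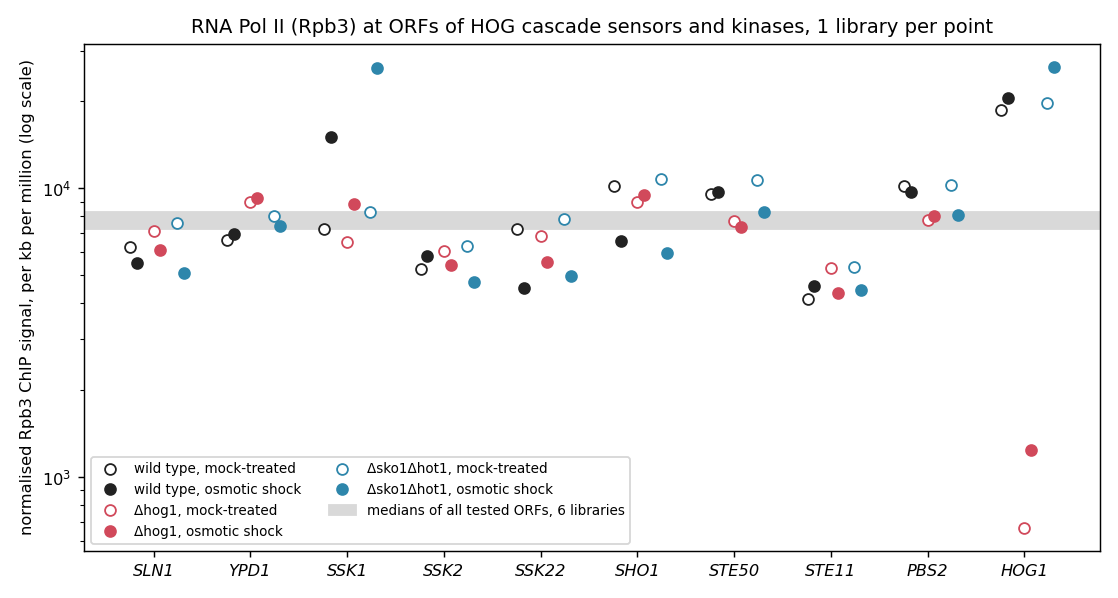
Normalised Rpb3 ChIP signal (log axis) at the 10 ORFs in 6 libraries, 1 point per library, with strain by colour, open points for mock treatment and filled points for 0.4 M KCl. The grey band spans the 6 library medians, 7200 to 8260. SSK1 lies above the band in shocked wild type (15100) and shocked Δsko1Δhot1 (26000), and HOG1 lies below it in Δhog1 (667 and 1240).

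SSK1 was the cascade gene with the largest difference in RNA Pol II between shock and mock treatment. SSK1 (YLR006C) encodes the response regulator at the end of the Sln1 phosphorelay. Its Rpb3 signal was 7230 in mock-treated and 15100 in shocked wild type, a change from the 49.3 to the 86.0 percentile of tested ORFs. In Δhog1 the signals were 6510 and 8840. In Δsko1Δhot1 they were 8280 and 26000, and the shocked value was at the 93.7 percentile. The shocked value was above every mock-treated value in all 3 strains.

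Folds are given on the log2 scale with a pseudocount of 996, which is 0.1 times the median of input. SSK1 had a fold of 0.97 in wild type, 0.39 in Δhog1 and 1.54 in Δsko1Δhot1. A change was counted from 2-fold, a log2 fold of 1. SSK1 in wild type falls just short of it, and with 0.01 times the median input added the fold was 1.05 and was counted. In Δsko1Δhot1 the fold was 0.98 with 1 times the median input added, and was not counted. Between shocked strains, SSK1 was 0.71 lower on the log2 scale in Δhog1 than in wild type (log2 fold -0.71) and 0.75 higher in Δsko1Δhot1. Before shock the same folds were -0.13 and 0.17. SSK1 was also higher in the shocked mock IP, 10600 against 7440 (log2 fold 0.46), and its input was 10500 against 9550. The part of these controls in the SSK1 difference was not tested. In shock the Rpb3 signal over input was 1.44 in wild type and 2.48 in Δsko1Δhot1, but 0.84 in Δhog1, where SSK1 stayed below input.

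SLN1 and YPD1, the sensor kinase and the phosphate carrier upstream of SSK1, showed smaller differences. SLN1 (YIL147C) had 6240 and 5520 Rpb3 signal in mock-treated and shocked wild type, 7140 and 6090 in Δhog1, and 7570 and 5110 in Δsko1Δhot1. All shocked values of SLN1 lay below all mock-treated values, with log2 folds of -0.15, -0.20 and -0.49. YPD1 (YDL235C) had 6610 and 6920 in wild type, 8970 and 9230 in Δhog1, and 8010 and 7430 in Δsko1Δhot1. The highest YPD1 values were the pair from Δhog1, before and after shock, with log2 folds over wild type of 0.39 and 0.37. At YPD1 the mock IP was lower in shock, 6660 against 9060.

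SSK2 and SSK22, the paralogous MAP kinase kinase kinases that Ssk1 activates, differed in these libraries. SSK2 (YNR031C) had 5270 and 5820 Rpb3 signal in wild type, 6080 and 5430 in Δhog1, and 6320 and 4750 in Δsko1Δhot1, so that mock-treated and shocked values overlapped. SSK22 (YCR073C) had 7230 and 4510 in wild type, 6850 and 5540 in Δhog1, and 7850 and 4970 in Δsko1Δhot1. Each shocked SSK22 value was below each mock-treated one, and the log2 folds were -0.58, -0.26 and -0.57. SSK22 was the lowest of the 10 ORFs in shocked wild type. Its input and mock IP were slightly higher in shock, with log2 folds of 0.10 and 0.17. All Rpb3 signals of SSK2 and SSK22 were below input.

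The Sho1 branch held the member with the second largest range over the 6 libraries. SHO1 (YER118C), the membrane protein that gives the branch its name, had 10200 and 6590 Rpb3 signal in mock-treated and shocked wild type. In Δhog1 SHO1 had 9000 and 9490, and in Δsko1Δhot1 10800 and 5980. The shocked values of wild type and Δsko1Δhot1 were the lowest of the 6, and in Δhog1 the shocked value was the higher one. The log2 folds were -0.56 in wild type, 0.07 in Δhog1 and -0.76 in Δsko1Δhot1. The fold in Δhog1 was thus 0.63 above that in wild type on the log2 scale, a difference with no test. Input at SHO1 was higher in shock, 13300 against 10500 (log2 fold 0.31). With signals divided by input, the SHO1 folds became -0.85, -0.23 and -1.04, so the direction in Δhog1 turned and the value in Δsko1Δhot1 passed 2-fold.

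STE50 and STE11, the adaptor and the kinase of the branch, and PBS2, where the branches meet, changed less than 2-fold with shock. STE50 (YCL032W) had 9580 and 9720 Rpb3 signal in wild type, 7690 and 7350 in Δhog1, and 10700 and 8250 in Δsko1Δhot1. STE11 (YLR362W) had the lowest or next to lowest signal of the 9 in every Rpb3 library, with 4130 and 4590 in wild type, 5300 and 4340 in Δhog1, and 5350 and 4440 in Δsko1Δhot1. PBS2 (YJL128C) had 10200 and 9690 in wild type, 7790 and 8000 in Δhog1, and 10300 and 8090 in Δsko1Δhot1. Both Δhog1 values of STE50 were below all 4 values of the other strains. The PBS2 value in mock-treated Δhog1 was the lowest of the 6, with a log2 fold over wild type of -0.35 and of -0.31 with shock in Δsko1Δhot1. Input at PBS2 was higher in shock, 10700 against 8970 (log2 fold 0.23). With signals divided by input, the PBS2 folds became -0.30 in wild type, -0.19 in Δhog1 and -0.54 in Δsko1Δhot1. The direction in Δhog1 turned, from a fold of 0.03.

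Set beside all ORFs, the number of cascade genes that changed was near the background in each strain. In wild type 0 of 9 changed 2-fold, where 12.1% of the 6013 tested ORFs did. In Δhog1 0 of 9 changed, where 1.05% of all ORFs did. In Δsko1Δhot1 1 of 9 changed, SSK1, where 14.1% of all ORFs did. The median log2 fold of the 9 was 0.02 in wild type and -0.06 in Δhog1, beside 0.04 and -0.05 for all ORFs. In Δsko1Δhot1 the median was -0.34 beside -0.13 for all ORFs, and 8 of the 9 members were below 0. Relative to that shift SSK1 was at 1.67 and SHO1 at -0.63. Since Δhog1 keeps nearly all ORFs within 2-fold, the small folds of the cascade genes in that strain are not particular to them.

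**Figure D2:**
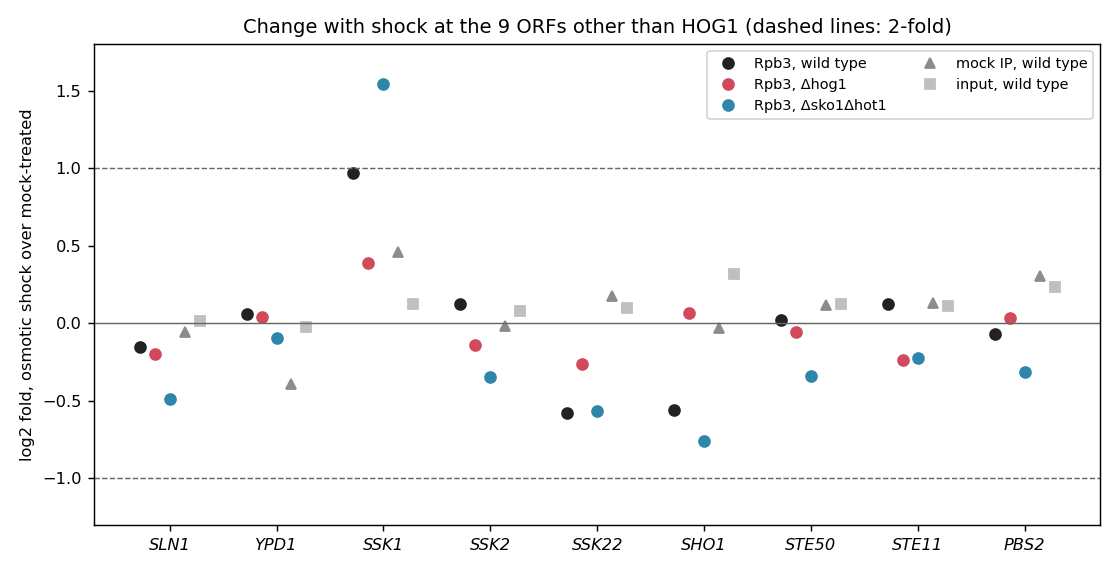
Log2 fold of osmotic shock over mock treatment (996 added to both signals) at the 9 ORFs other than HOG1, for Rpb3 in 3 strains and for the wild-type mock IP and input, 1 point per pair of libraries. The dashed lines mark 2-fold. SSK1 in Δsko1Δhot1 (1.54) is the one point past a line, SSK1 in wild type (0.97) lies just inside it, and the mock IP spans -0.39 to 0.46.

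No cascade gene other than HOG1 differed 2-fold between strains. Between mock-treated Δhog1 and wild type 0 of 9 changed 2-fold, against 6.17% of all ORFs, and between mock-treated Δsko1Δhot1 and wild type 0 of 9, against 0.698%. All 9 were above 0 in the latter, with log2 folds of 0.01 to 0.31 and a median of 0.17, but so was the median of all ORFs at 0.16. Between shocked Δhog1 and wild type 0 of 9 changed, against 10.2% of all ORFs, with SSK1 at -0.71 and SHO1 at 0.47 as the extremes. Between shocked Δsko1Δhot1 and wild type 0 of 9 changed, against 2.66%, and SSK1 at 0.75 was the only one of the 9 beyond 0.5 on the log2 scale. These comparisons share their wild-type libraries with the shock fold of wild type.

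Over the strains, 3 of the 9 ORFs had shocked Rpb3 values that did not overlap the mock-treated ones, SSK1 upward and SLN1 and SSK22 downward. Of all tested ORFs, 17.2% were separated in this way, 293 upward and 740 downward. The strains are not replicates of one another, and this count was added after the values had been seen.

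The ORFs most like SSK1 in Rpb3 pattern over the 6 libraries were RSB1, YNL134C and YGR130C, with Pearson r of 0.999, 0.999 and 0.996. Likeness was measured on log2 signals centred on the library medians, among the 502 ORFs that ranged at least as widely as SSK1, which spanned 1.83 on the log2 scale. RSB1 (YOR049C) had 6890 and 18300 Rpb3 signal in wild type, 6060 and 9650 in Δhog1, and 8030 and 36600 in Δsko1Δhot1, the same order of libraries as SSK1. For SHO1, which spanned 0.70, the closest of 2688 ORFs were RPS29A (r = 1.00), RPL17A (r = 0.999) and RPL16A (r = 0.999). These encode ribosomal proteins and have close paralogs, so that their signal rests on tags with a unique place. RPS29A (YLR388W) had 44600 and 17300 Rpb3 signal in wild type, 33600 and 38700 in Δhog1, and 44500 and 14000 in Δsko1Δhot1. All ORFs share the same 6 libraries, so these correlations are a description and carry no p-value.

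Hog1 ChIP gave none of the 9 ORFs a signal in shock past cutoffs recomputed by the study's rule on the ORFs tested here. In shocked wild type the Hog1 signal of the 9 ran from 11700 at YPD1 to 18300 at STE50, with a library median of 13000 over all tested ORFs. In mock-treated wild type it ran from 10800 at YPD1 and STE11 to 17800 at STE50. The mock IP at the same ORFs was 6660 to 10600 in shock. STE50 had the highest Hog1 signal of the 9 in all 4 Hog1 libraries, at the 89.2 to 93.1 percentile, and was as high in input, at the 97.1 and 97.9 percentile.

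With shock, 0 of 9 changed 2-fold in Hog1 signal in wild type, against 0.948% of all ORFs, and 0 of 9 in Δsko1Δhot1, against 1.58%. SSK1 had 14600 and 16300 Hog1 signal in mock-treated and shocked wild type, a log2 fold of 0.15, and 11100 and 12200 in Δsko1Δhot1, a log2 fold of 0.13. The mock IP of SSK1 differed by more than either. SHO1 had 16100 and 12800 in wild type, a log2 fold of -0.31, and 12800 and 10400 in Δsko1Δhot1. STE50 had 18900 and 13900 in Δsko1Δhot1, with the lowest log2 fold of the 9 at -0.42.

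Enrichment was computed as in the methods of the study, as Hog1 minus mock IP over input, with a cutoff of 3 standard deviations above the median. In shocked wild type the cutoff was 1.59, and the 9 enrichments were 0.37 at SSK22 to 0.70 at STE50, beside a median of 0.50 for all ORFs. An ORF counts as occupied when enrichment, the ratio of shocked to mock-treated Hog1 signal, and the Hog1 signal are all past their cutoffs, and 0.482% of tested ORFs met all 3 criteria. None of the 9 passed any of the 3, which 66, 47 and 61 of the 6013 ORFs passed, so that a count of 0 of 9 is near the background.

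The HOG1 ORF stood apart in the Hog1 libraries of the strain that is otherwise wild type. Its Hog1 signal was 118000 in mock-treated and 96400 in shocked cells, which ranked 1 and 8 from the top. That was 16.2 and 9.78 times the mock IP, which gave 7270 and 9860. The mock-treated value was the higher one (log2 fold -0.29). In shock HOG1 passed the cutoffs for enrichment and signal but not the one for the ratio. In Δsko1Δhot1, where Hog1 was also precipitated through the tag, the HOG1 ORF had 17800 and 15300, or 6.63 and 6.30 times lower, where the library medians were 10100 and 9690 against 13400 and 13000 in the otherwise wild-type strain. There its enrichment was 1.04 mock-treated and 0.50 in shock, below both cutoffs. Rpb3 at HOG1 was 19800 and 26300 in Δsko1Δhot1, where the tag may also be present, against 18700 and 20500 in untagged wild type. The tag and its marker are inserted at this locus, and their part in the signal was not tested.

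**Figure D3:**
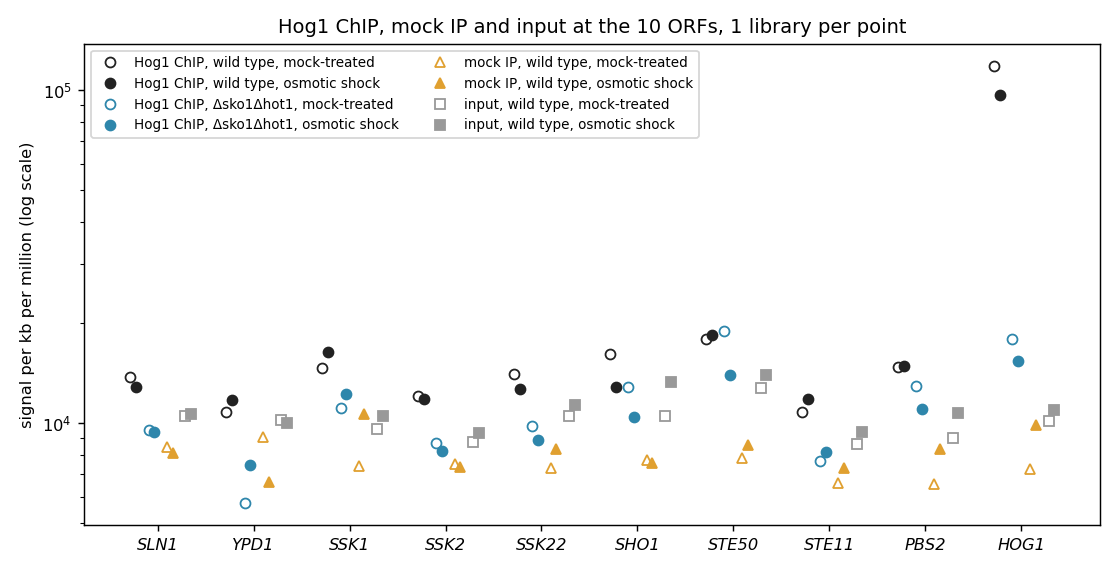
Normalised signal (log axis) at the 10 ORFs in the Hog1 ChIP of 2 strains and in the wild-type mock IP and input, 1 point per library, with open points for mock treatment and filled points for 0.4 M KCl. At the 9 ORFs other than HOG1 the wild-type Hog1 signals lie between 10800 and 18300, and at HOG1 they reach 118000 and 96400.

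The tables of promoters (1000 bp upstream) and of downstream regions (50 to 500 bp) were read as headed, with a doubt about their heads. At the GPD1 promoter the columns headed input gave 23100 and 207000 in mock treatment and shock, and those headed Hog1 ChIP in wild type gave 3450 and 8820. At the STL1 promoter the same columns gave 18300 and 93800, and 12600 and 7520. Downstream of GPD1 they gave 9260 and 71100, and 5150 and 20400. The heads of both tables may thus not name the libraries that the columns hold. Whichever library they hold, the promoters of the 9 genes gave 3680 to 22700 in all 8 columns, and 1 of their 72 values was past the 99 percentile, STE50 with 22700 in the column headed Hog1 ChIP in mock-treated Δsko1Δhot1. Their downstream regions gave 2320 to 18400, with 0 of 72 values past that percentile. The region downstream of HOG1 gave 49000 and 91400 in the columns headed input, ranked 6 and 4 of 6609 regions, and 3930 to 8840 in the 6 other columns. The HOG1 promoter gave 18700 and 22200 in the columns headed input, at the 97.1 and 97.6 percentile.

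Other genes of the pathway, on lists of 38 names of which 37 were tested, all but SKO1, were counted in the same libraries. In wild type 2 of 37 changed 2-fold, where 12.1% of all ORFs did, both upward and both from the list of kinases and factors downstream of Hog1. MSN2, a transcription factor of the general stress response, had 7550 and 31400 Rpb3 signal in mock-treated and shocked wild type (log2 fold 1.92), against 6870 and 7960 in Δhog1 and 10000 and 16600 in Δsko1Δhot1. RCK1, a kinase related to the Hog1 substrate Rck2, had 3390 and 10200 in wild type (log2 fold 1.35), against 4910 and 3520 in Δhog1 and 5210 and 6280 in Δsko1Δhot1. MSN2 was thus higher in shock in each strain, and RCK1 in wild type and Δsko1Δhot1. In the list of 7 the median Rpb3 log2 fold was 0.26 in wild type, beside 0.04 for all ORFs. It was -0.04 in Δhog1 beside -0.05, and 0.40 in Δsko1Δhot1 beside -0.13. The mock IP of the same 7 genes had a median log2 fold of 0.31, beside 0.03 for all ORFs. Its part in the Rpb3 median was not tested.

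In Δhog1 3 of 37 changed 2-fold, all upward, where 1.05% of all ORFs changed. The lists were chosen with earlier results of these data known, so no count on them can show an enrichment. Of these, 2 belong to the pheromone cascade, which shares Ste11 and Ste50 with the Sho1 branch, and 1 to its membrane inputs. FUS3, the MAP kinase of the pheromone response, had 10400 and 42900 Rpb3 signal in mock-treated and shocked Δhog1 (log2 fold 1.95), 21100 and 14800 in wild type, and 13200 and 16400 in Δsko1Δhot1. STE12, the transcription factor of that response, had 6930 and 20600 in Δhog1 (log2 fold 1.45), 7470 and 7160 in wild type, and 7780 and 8660 in Δsko1Δhot1. MSB2, a membrane mucin that acts with Sho1, had 15500 and 36400 in Δhog1 (log2 fold 1.18), 27700 and 20500 in wild type, and 16500 and 23100 in Δsko1Δhot1. The shocked Δhog1 library was the highest of the 6 for all 3 genes. KSS1, the filamentation MAP kinase, had log2 folds of 0.65 in Δhog1 and -0.33 in wild type, and STE4, the beta subunit of the pheromone G protein, had 0.49 and -0.64. The median of the 7 pheromone genes was 0.49 in Δhog1 and -0.05 in wild type.

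STE11 and STE50 themselves did not move with these genes in Δhog1, with log2 folds of -0.24 and -0.06. The plot of wild type against Δhog1 folds places the cascade members within 2-fold on the Δhog1 axis, from -0.26 at SSK22 to 0.39 at SSK1. These ends were at the 17.2 and 90.8 percentiles of the folds of all tested ORFs.

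**Figure D4:**
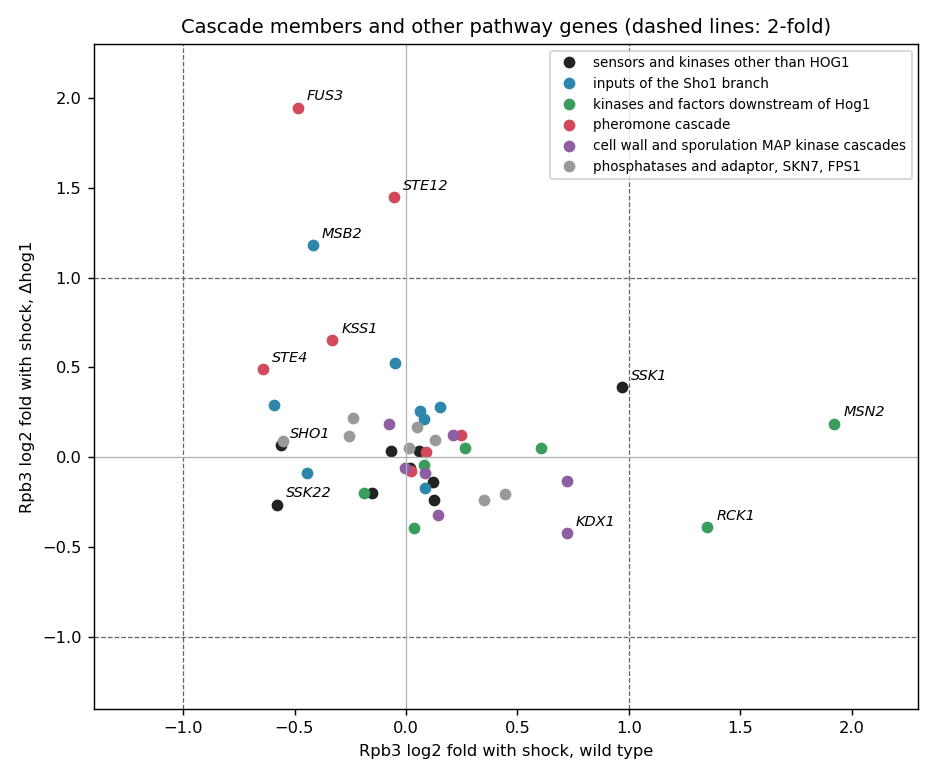
Rpb3 log2 fold of shock over mock treatment in wild type (x) and in Δhog1 (y) for the 9 cascade genes and 37 other pathway genes, 1 point per gene. The dashed lines mark 2-fold. MSN2 (1.92) and RCK1 (1.35) lie past the line on the wild-type axis, FUS3 (1.95), STE12 (1.45) and MSB2 (1.18) past the line on the Δhog1 axis, and no cascade gene past either.

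In Δsko1Δhot1 1 of 37 changed 2-fold with shock, where 14.1% of all ORFs did, namely SLT2, the MAP kinase of cell wall integrity. SLT2 had 14400 and 31900 Rpb3 signal there (log2 fold 1.10), 11800 and 20100 in wild type, and 7500 and 6770 in Δhog1. This is the order of strains seen at SSK1. KDX1, a kinase related to SLT2, had log2 folds of 0.72 in wild type, -0.42 in Δhog1 and -0.64 in Δsko1Δhot1. Between mock-treated Δhog1 and wild type 1 of 37 changed, where 6.17% of all ORFs did, namely PTC2, a type 2C phosphatase that acts on Hog1, with 10100 against 24500 Rpb3 signal (log2 fold -1.20). Between shocked Δhog1 and wild type, where 10.2% of all ORFs changed, 2 of 37 were higher, FUS3 and STE12, and 3 were lower, MSN2, RCK1 and SLT2. Between shocked or mock-treated Δsko1Δhot1 and wild type 0 of 36 changed, HOT1 left out, where 2.66% and 0.698% of all ORFs did.

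No gene of the lists of phosphatases, response regulator and glycerol channel changed 2-fold with shock, and none but MSB2 among the 8 inputs of the Sho1 branch. Among those inputs the largest differences in wild type were at STE20, a kinase that activates Ste11, and HKR1, a second mucin sensor, with log2 folds of -0.59 and -0.44. Among 6 phosphatases and adaptors, they were at PTP2 and PTP3, the tyrosine phosphatases of Hog1, with 0.44 and 0.35. SKN7, the other response regulator fed by Sln1 and Ypd1, had -0.55, 0.09 and -0.39 in wild type, Δhog1 and Δsko1Δhot1, unlike SSK1 in its sign in wild type. FPS1, the glycerol channel, had 0.05, 0.17 and 0.20.

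Genes outside the cascade give the scale of the response in the same libraries. GPD1 had log2 folds in Rpb3 of 6.22, 0.90 and 3.78 in wild type, Δhog1 and Δsko1Δhot1. STL1, the glycerol importer, had 5.73, 0.32 and -0.06, and HSP12, a small stress protein, 6.25, -0.07 and 5.52. PDC1, the main pyruvate decarboxylase, had -1.71, 0.05 and -2.07. At SSK1, as at none of these 4 genes, the fold in Δsko1Δhot1 was above that in wild type. That order is not particular to SSK1. HOG1 (0.13 in wild type and 0.39 in Δsko1Δhot1) and SLT2 (0.72 and 1.10) had it too, and KDX1 (0.72 and -0.64) did not. These are descriptions of single libraries.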

How the data were processed

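ChIP-seq values of 14 libraries, 1 per condition, were used: Rpb3 in 3 strains, Hog1 in 2 strains, mock IP and input, each mock-treated and in osmotic shock. The authors deposited a coverage signal per ORF, promoter and downstream region, which they name RPKM. It is scaled to region length and library total, and is taken here as a sum of bases covered by extended unique tags, which is an inference. The submitters' processing notes name Bowtie and sacCer2, the supplement names ELAND, and neither gives a version. The authors left out ORF parts that overlap another ORF.

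Of 6334 ORF entries, 4 with a shared name were left out, then the 5% with the lowest mock-treated input signal (up to 6685), which left 6013. The methods leave out 5% by number of input reads, a quantity not normalised for length. Gene names are those the authors gave. Where these repeated the ORF name, the symbol of the R64 reference table was used, if it had one. That table matched 5807 ORFs and was used for names only. Log2 folds used a pseudocount of 996, and understate changes of low signals. Computation used Python 3.11.15 with numpy 2.4.6 and pandas 2.3.3, checked on simulated data. With 1 library per condition no p-value was computed, and without read totals per library no interval was given.

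The members and lists were chosen with earlier results of these data known. Named were the 10 members, list genes changed 2-fold or with the 2 largest folds of their list in wild type, 4 genes as a scale and 3 neighbours of each of 2 members. KSS1 was named after its values were seen, and HOT1 to check a label. The deposited peaks of Sko1 and Hot1, with positions on sacCer2 and no gene names, and the 4 libraries of Sko1 and Hot1 were not used here, nor were ORF coordinates or sequences.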

Additional observations from a re-analysis of the deposited data

Results flagged for a closer look

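In 5 of the named pathway genes the Rpb3 fold with shock had opposite signs in wild type and in a deletion strain, both larger than the spread of 0.39 in the mock IP, and the difference was not tested. FUS3 had log2 folds of -0.48 in wild type and 1.95 in Δhog1. MSB2 had -0.42 in wild type, 1.18 in Δhog1 and 0.46 in Δsko1Δhot1. STE4 had -0.64 in wild type and 0.49 in Δhog1. RCK1 had 1.35 in wild type and -0.39 in Δhog1, which is at the edge of that spread. KDX1 had 0.72 in wild type, -0.42 in Δhog1 and -0.64 in Δsko1Δhot1. Signs were opposite in this way between wild type and Δhog1 in 5 of 37 pathway genes, 0 of 9 cascade genes and 3.63% of all tested ORFs, and between wild type and Δsko1Δhot1 in 2 of 36, 0 of 9 and 0.516%. The counts of 0 are near the background. The pathway lists were chosen with earlier results of these data known, so their counts cannot show an enrichment.

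The region downstream of HOG1 gave 49000 mock-treated and 91400 in shock in the columns headed input, where the columns headed mock IP gave 8840 and 7350. The heads of that table are in doubt.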

How the results depend on the processing

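Of the 9 cascade genes other than HOG1, the number changed 2-fold depended on the setting in 7 comparisons. With input subtracted it was 2 in wild type (SSK1, PBS2) and 2 in Δsko1Δhot1 (SSK1, PBS2) for shock in Rpb3, 1 each for mock-treated Δhog1 over wild type (PBS2), shocked Δhog1 over wild type (SSK1) and shocked Δsko1Δhot1 over wild type (SSK1), and 1 in wild type (SHO1) and 3 in Δsko1Δhot1 (SHO1, STE50, PBS2) for Hog1 ChIP. Most members lie near or below input, so subtraction leaves little signal. Counted from 1.5-fold, it was 1 in wild type (SSK1), 2 in Δsko1Δhot1 (SSK1, SHO1), and 1 (SSK1) for each deletion strain over wild type in shock. With 0.01 times the median input added it was 1 in wild type, with 1 times it was 0 in Δsko1Δhot1, and divided by input it was 2 there (SSK1, SHO1). Without the input filter, or with folds centred on the median of all ORFs, every one of the 9 counts of changed members kept its value. All members had passed the filter, so leaving it out moved only the pseudocount of their folds. No setting tried put any of the 9 past the cutoff of Hog1 enrichment at ORFs, but without the input filter 0 ORFs of the whole table passed it, so that setting says nothing. Enrichment at promoters and downstream regions divides by the column headed input, which was 207000 at the GPD1 promoter in shock, and is not read here. Subtracting input cannot change the number of members with Rpb3 above input, since both ask the same question, so that setting says nothing about it. No paired analysis was possible because no group has a second library to pair or to leave out. Shock and mock treatment came from split cultures, so each fold with shock is within a strain, and a fit of treatment over the 3 strains was not run, since the strains are not replicates. The planned comparison of members with Sko1 and Hot1 peaks was not run, since no ORF positions on sacCer2 were used here.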
